A study of Mus musculus with 13 samples.

Results

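The mitochondrial ribosomal protein genes described here are the 78 genes of the deposited count table whose symbol begins with *Mrpl* or *Mrps* followed by a number, out of 27111 features with a gene name. Pseudogenes were left out. By the place of the protein in the assembled ribosome, 51 of them belong to the large subunit and 26 to the small subunit. *Mrps30* and *Mrps18a* carry a small-subunit symbol but sit in the large subunit. *Mrps36* was counted in neither subunit, because its product is now assigned to the 2-oxoglutarate dehydrogenase complex.

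RNA was sequenced from Sertoli cells of 13 adult C57Bl/6J males, 6 controls and 7 males that had been through unpredictable separation from the mother and unpredictable stress of the mother (MSUS), to ask whether stress in early life leaves lasting changes in the transcriptome of these cells. The exposure took place in the first 14 postnatal days and lasted 3 h a day without a fixed schedule. The dams were forced to swim (18 °C, 5 min) or held in a tube (20 min) in these hours. Controls had neither, and all mice were wild type. Sertoli cells were enriched from digested testis by sorting diploid, large cells with a high MitoTracker signal, a dye that reads mitochondrial mass and activity, so the gate itself selects on mitochondria. Samples are named by group and animal number. The study recorded litter and cage, but these are not in the labels and were not used here, so p-values measure the spread between these mice and take no account of shared litters.

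Mitochondria carry their own ribosomes, which translate only the few mRNA of mitochondrial DNA. These mRNA encode core subunits of the electron transport chain and of ATP synthase. The ribosomal RNA of this ribosome comes from mitochondrial DNA, while each of its proteins is encoded in the nucleus, translated by cytosolic ribosomes and imported. Sertoli cells support germ cells, in large part by turning glucose into lactate for them.

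All 78 genes passed the filter on low counts. The table holds counts estimated from the reads, and the control samples had between 13087203 and 18649945 counts, the MSUS samples between 12701776 and 15693938. Between 24256 and 31287 counts of a control sample and between 22361 and 27696 of an MSUS sample were on the 78 genes. This is a mean of 0.237% of the counts on named genes in controls and of 0.221% in MSUS samples. The mean count per gene over samples ranged from 39.9 for *Mrpl14* to 1053 for *Mrps6*. In 37 genes the estimate was a whole number in every sample, within 0.005, and in the remaining 41 some reads were shared out between features, so their values depend on how the reads were assigned.

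The libraries did not stand equally. Averaged over the 78 genes, with each gene set to its own mean over all samples, MSUS 26 was lowest with -0.22 on the log2 scale, followed by MSUS 5 with -0.16 and control 10 with -0.13. The remaining 10 samples lay between -0.03 and 0.15. The main values of the group comparison are therefore also given without MSUS 5 and MSUS 26, a choice made after the values were seen.

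Of the cell type lists, Sertoli cell markers had the highest mean log2 CPM. Over 5 genes it was 10.18 ± 0.10 (SD over the 6 controls) and 10.15 ± 0.09 (SD over the 7 MSUS samples). These list means are not per length, so they do not rank the cell types by amount of RNA. CPM is the count of a gene relative to library size after TMM normalization, a scaling between samples, and a prior count of 2 was added. Markers of elongated spermatids had 7.90 ± 0.23 in controls and 8.09 ± 0.46 in MSUS samples. Their most abundant gene, *Prm2*, had 9.22 in controls and 9.30 in MSUS samples. The Sertoli markers *Rhox5* and *Sox9* were below it, with 7.38 and 8.67 in controls, while *Amhr2*, *Clu* and *Ctsl* were above it. Markers of spermatocytes had 5.39 ± 0.16 and 5.23 ± 0.37. Round spermatid, spermatogonia, Leydig, peritubular myoid and endothelial lists had means between 0.94 and 3.34 in both groups. The means of the macrophage and blood lists lay below -1.5 in both groups, and *Lyz2* and *Hba-a1* had 0 counts in every sample. Among single samples the macrophage list was highest in MSUS 5 with -0.79. The peritubular myoid list, with a mean of 2.14 ± 0.96 in controls and 2.69 ± 1.25 in MSUS samples, was highest in MSUS 5 with 4.38 and MSUS 26 with 3.94, ahead of control 22 with 3.77. *Acta2* was its most abundant gene. MSUS 26 was lowest in the elongated spermatid list with 7.26. The part of these cells in the values of both libraries was not tested. The endothelial list was above the control mean in each of the 7 MSUS samples, at 3.09 ± 0.18 in controls and 3.34 ± 0.14 in MSUS samples, and its part in the differences between groups was not tested. Fewer cells of a type and less RNA per cell cannot be told apart in such samples.

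Levels of different genes were compared per length, as log2 CPM per kb of the longest protein-coding transcript. On this scale the 78 genes had a mean of 4.02 ± 0.10 in controls (SD over 6 samples). Genes differed far more than mice did, with an SD between genes of 1.13 and a range from 0.90 to 7.56. *Mrpl52* was highest with a level of 7.56, ahead of *Mrps6* with 6.79, *Mrpl54* with 5.89, *Mrpl20* with 5.85 and *Mrps18a* with 5.83. Lowest were *Mrps16* with 0.90, *Mrpl17* with 1.33, *Mrpl47* with 1.85, *Mrpl35* with 2.25 and *Mrps35* with 2.33. These low levels per kb go with long annotated transcripts of 2572 bases for *Mrps16*, 7300 for *Mrpl17*, 3364 for *Mrpl47*, 3721 for *Mrpl35* and 4162 for *Mrps35*, while *Mrpl52* has 463 bases. *Mrpl54*, *Mrpl20* and *Mrps18a* differed from each other by less than the SD of any of them between control samples, and so did *Mrpl35* and *Mrps35*, while *Mrpl52* and *Mrps6*, and *Mrpl17* and *Mrpl47*, lay further apart than that.

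The large subunit had a mean level of 4.08 ± 0.10 and the small subunit of 3.93 ± 0.11 log2 CPM per kb in controls. Within each control sample the large subunit was above the small one, by 0.145 ± 0.046 on average, with 0.068 in control 14 as the lowest and 0.198 in control 9 as the highest difference. It was also above in every MSUS sample, by 0.121 ± 0.030, between 0.092 in MSUS 11 and 0.179 in MSUS 13. The ranges of both groups overlapped. The difference in controls was 0.0655 when subunits were taken from the symbol and 0.0777 without correction for length. Without that correction, the large and small subunit of control 14 had 4.699 and 4.698 log2 CPM. Single genes had an SD of 1.15 in the large and 1.11 in the small subunit in log2 CPM per kb. That is not the spread of a subunit mean, but it is far above the difference. The same genes and lengths enter every sample, so an equal sign in each sample does not account for the spread between genes. Whether the subunits differ beyond that spread was not tested. In the same unit the 81 cytosolic ribosomal protein genes that passed the filter had 6.64 ± 0.12, and the 13 mRNA of mitochondrial DNA had 10.003 ± 0.25.

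**Figure D1:**
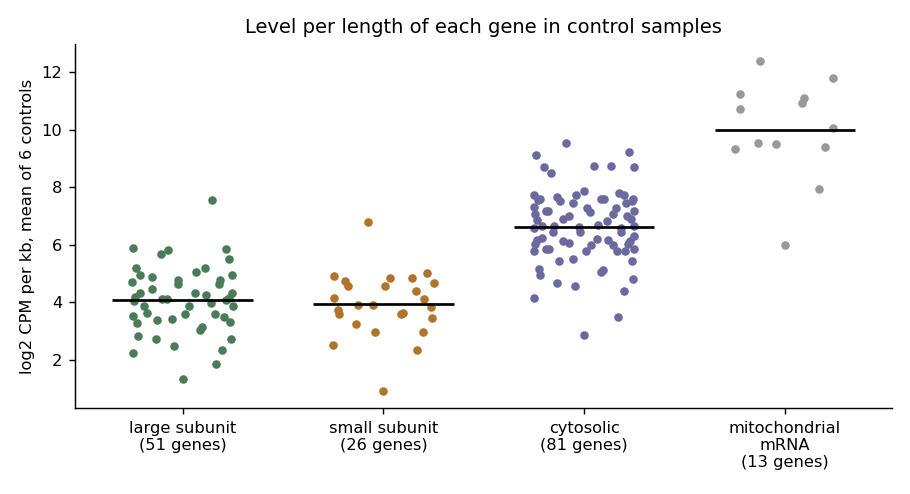
Mean log2 CPM per kb of transcript over the 6 control samples, 1 point per gene, for 51 large-subunit and 26 small-subunit genes of the mitochondrial ribosome, 81 cytosolic ribosomal protein genes and 13 mRNA of mitochondrial DNA. Lines are means of 4.08, 3.93, 6.64 and 10.003, and the horizontal spread of points carries no value.

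Proteins of known place in the ribosome did not share 1 level. Among the genes of the stalk, the flexible arm that recruits translation factors, *Mrpl12* had a level of 5.20 log2 CPM per kb in controls, *Mrpl10* of 4.79, *Mrpl53* of 3.89 and *Mrpl11* of 2.83. Around the exit tunnel, through which the new protein leaves, *Mrpl24* had 4.77, *Mrpl22* 4.63 and *Mrpl23* 3.63, and *Mrpl45*, which ties the ribosome to the inner membrane, had 3.15. Near the peptidyl transferase centre, where peptide bonds are made, *Mrpl2* had 4.63, *Mrpl3* 4.45 and *Mrpl16* 4.12. In the small subunit, *Mrps7* had 4.68 and *Mrps14* 2.97 in the head, and *Mrps12*, at the decoding centre, had 4.15. *Mrps5*, by the mRNA entry, had 3.90 and *Mrps2* had 3.604. Of the 3 relatives of bacterial protein S18, *Mrps18a* had 5.83, *Mrps18b* 4.39 and *Mrps18c* 2.96. *Mrpl58*, a peptidyl-tRNA hydrolase that frees stalled ribosomes, had 3.59, *Mrps30* 3.86 and *Mrps36* 3.49. Among controls, the SD of a single gene was largest for *Mrps16* with 0.46, *Mrps18c* with 0.35 and *Mrps24* with 0.34, and smallest for *Mrpl1* with 0.089, *Mrps17* with 0.094 and *Mrps7* with 0.098.

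The 78 genes lie on 17 chromosomes of GRCm38, with 11 on chromosome 11 and 8 on chromosome 17. In the GENCODE annotation, 33 of the 78 (42.3%) start within 1000 bases of the start of a protein-coding gene on the opposite strand, where the start is the outermost annotated end of the gene and the genes of a pair may overlap. The share was 20.0% of 80 cytosolic ribosomal protein genes and 15.9% of the 12930 protein-coding genes tested. *Mrpl54* and *Apba3* start 26 bases apart, and *Mrpl36* and *Ndufs6*, which encodes a subunit of complex I, start 29 bases apart in the same annotation. *Mrps11* and *Mrpl46*, 412 bases apart, are the pair in which both genes encode mitochondrial ribosomal proteins. After removal of group means, their levels correlated over 13 samples with r = 0.34. Those of *Mrpl49* and *Fau*, a cytosolic ribosomal protein gene 59 bases apart, had r = 0.61. Over the 31 pairs with both genes tested, r ranged from -0.66 for *Mrps5* and *Zfp661* to 0.85 for *Mrpl44* and *Wdfy1*. Of these pairs 51.6% were positive and the median r was 0.0066, beside 57.6% and 0.066 over 933 such pairs of all genes.

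Promoter windows of 250 bases before to 50 bases after the annotated start were taken from RefSeq on GRCm38.p6, and 69 of the 78 genes matched, with 75 windows. They were searched on both strands for short motifs of 3 factors known at promoters of nuclear genes of mitochondria. The NRF1 motif, GCGCANGCG, was in 21.3% of these windows, in 12.5% of those of all genes tested and in 6.25% of all 32851 windows. The GABPA motif, CGGAAGT, was in 22.7%, 12.1% and 6.42%, and the YY1 motif, AAGATGGCG, in 10.7%, 2.76% and 1.40%. At least 1 of the 3 was in 49.3% of the 75 windows, in 44.6% of 74 windows of cytosolic ribosomal protein genes and in 24.6% of those of all genes tested. The CRE motif, TGACGTCA, was in 2.67% of the 75 windows and TATAAA in 6.67%, beside 3.00% and 8.07% of those of all genes tested. None of the motifs found overlapped another of a different kind in the windows printed here. A match of letters is a description and not a site at which a factor was measured.

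Windows with motifs of 2 of the 3 factors were found for *Mrpl10*, *Mrps18a*, *Mrps26* and *Mrps27*. These are shown here. All are on the plus strand of GRCm38.p6, 5′ to 3′. Capitals mark the motifs, which may be read on either strand, and positions count from the annotated start as 1, with the base before it as -1. In *Mrpl10* (chr11:97041332-97041631) capitals mark NRF1 from -135 and GABPA from -23. In *Mrps18a* (chr17:46110754-46111053) they mark GABPA from -19 and YY1 from 12. In *Mrps26* (chr2:130563507-130563806) they mark GABPA from -15 and a pair of overlapping NRF1 motifs from -2 and 5. In *Mrps27* (chr13:99344536-99344835) they mark GABPA from -49 and YY1 from 15.
Mrpl10: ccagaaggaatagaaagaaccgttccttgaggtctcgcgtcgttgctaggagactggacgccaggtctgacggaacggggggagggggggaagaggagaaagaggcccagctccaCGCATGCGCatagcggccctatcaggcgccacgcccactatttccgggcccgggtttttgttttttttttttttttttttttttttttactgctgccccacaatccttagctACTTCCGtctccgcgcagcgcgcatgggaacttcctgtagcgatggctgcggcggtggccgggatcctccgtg
Mrps18a: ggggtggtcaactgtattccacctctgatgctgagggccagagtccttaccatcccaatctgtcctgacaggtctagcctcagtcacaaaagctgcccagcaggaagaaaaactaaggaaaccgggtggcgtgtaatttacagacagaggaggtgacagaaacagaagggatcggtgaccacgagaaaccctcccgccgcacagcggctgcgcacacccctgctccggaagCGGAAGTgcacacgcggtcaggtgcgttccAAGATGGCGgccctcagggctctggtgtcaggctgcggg
Mrps26: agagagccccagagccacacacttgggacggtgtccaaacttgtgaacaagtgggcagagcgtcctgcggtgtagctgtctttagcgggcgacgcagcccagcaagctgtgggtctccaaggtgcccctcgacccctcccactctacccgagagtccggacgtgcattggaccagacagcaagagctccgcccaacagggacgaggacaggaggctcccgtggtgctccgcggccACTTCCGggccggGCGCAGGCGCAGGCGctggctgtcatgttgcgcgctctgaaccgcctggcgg
Mrps27: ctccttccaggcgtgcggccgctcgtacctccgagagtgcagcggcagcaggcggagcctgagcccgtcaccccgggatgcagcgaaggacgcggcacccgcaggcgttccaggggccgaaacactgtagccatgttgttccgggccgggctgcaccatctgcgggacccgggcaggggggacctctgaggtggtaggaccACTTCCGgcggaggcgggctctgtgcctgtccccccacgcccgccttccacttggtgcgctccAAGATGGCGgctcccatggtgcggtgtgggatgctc

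Few mitochondrial ribosomal protein genes differed between Sertoli cells of MSUS and control males by more than the spread between mice, and none after adjustment. Compared with controls, 5 of the 78 genes were lower at an unadjusted p under 0.05, the threshold of the study, and 0 were higher. Of all 14421 genes tested, 2.4% were lower and 3.02% were higher by the same rule. After Benjamini-Hochberg adjustment in limma, 0 of the 78 genes and 0% of all genes had p under 0.05. The median log2 fold change of the 78 genes was -0.088, beside -0.0018 over all genes, and 64 of the 78 (82.1%) were negative, beside 50.5% of all genes. With the elongated spermatid score in the model the median was -0.104 and 67 were negative, with the mitochondrial mRNA share -0.019 and 44, and with the level of *Malat1*, a noncoding RNA described below, 0.047 and 31. With the cytosolic ribosomal protein score, added after the values were seen, it was -0.0074 and 43. In none of the 78 were all MSUS samples below or all above the controls, which 0.0555% and 0.0763% of all genes showed.

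The animals were not equally far from the controls. In MSUS 26 and MSUS 5, 69 and 68 of the 78 genes lay below the control mean, while in MSUS 1 and MSUS 23 this was 39 and 35. Leaving out control 10 gave 12 lower genes, beside 3.5% of all genes, 69 negative genes and a median of -0.114. The median was -0.047 with 53 negative without MSUS 26, -0.055 with 59 without MSUS 5 and -0.058 with 57 without control 9. The count of lower genes was 10 without MSUS 1, beside 2.29% of all genes, and 8 without MSUS 23, beside 2.81%. It was 3 without any 1 of control 22, MSUS 5, MSUS 13 and MSUS 26, beside 2.44%, 1.67%, 2.68% and 1.95% of all genes. Without both MSUS 5 and MSUS 26, 1 gene was lower, beside 1.78% of all genes, the median was -0.012 and 43 of the 78 were negative, but these 2 animals were picked for their low values of the same genes, so that leaving them out had to make the difference smaller. Over all samples, the mean of the 78 genes was 4.44 at the lowest, 4.65 at the median and 4.73 at the highest log2 CPM in controls, and 4.35, 4.57 and 4.65 in MSUS samples, and the groups overlapped.

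**Figure D2:**
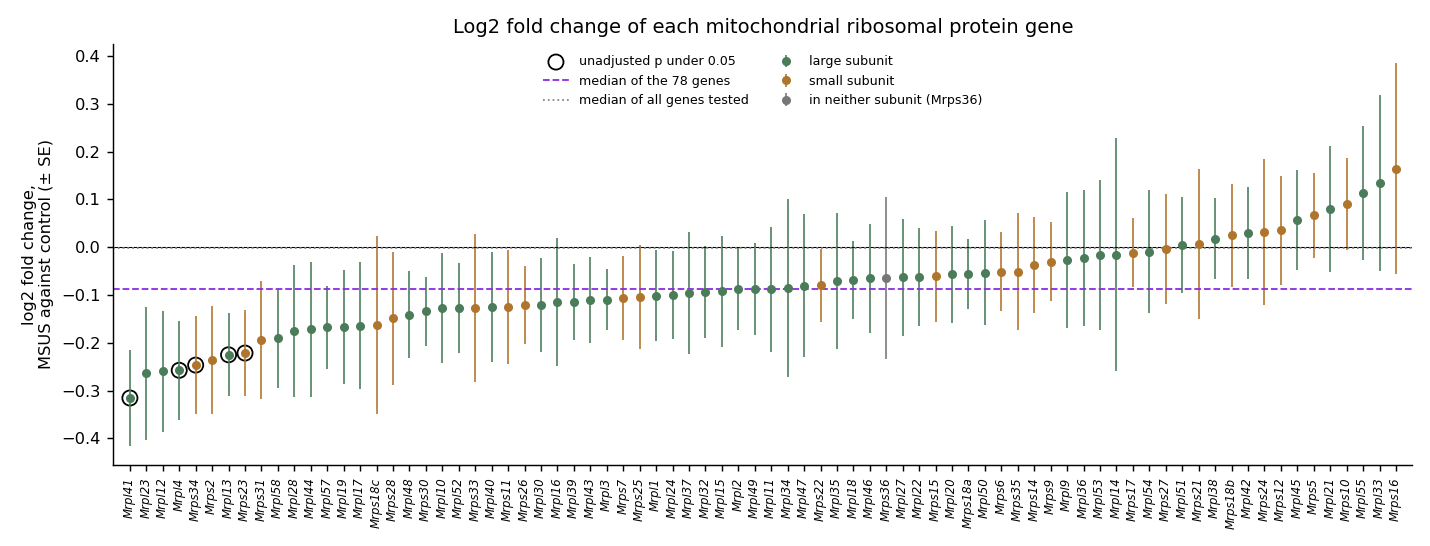
Log2 fold change of each of the 78 genes, MSUS against control, with its standard error from limma, ordered by size and coloured by subunit. Rings mark the 5 genes with an unadjusted p under 0.05, all negative, and the dashed line is the median of -0.088.

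*Mrpl41*, a large-subunit protein with no bacterial counterpart, showed the smallest p. Its level was 4.40 at the lowest, 4.65 at the median and 4.75 at the highest log2 CPM in controls, and 4.04, 4.27 and 4.53 in MSUS samples. All 7 MSUS samples were below the control mean and 5 were below every control. The log2 fold change was -0.32 with a standard error of 0.10, an unadjusted p of 0.00541 and an adjusted p of 0.878 in limma. The gene lies on chromosome 2 from 24974117 to 24975098 on the minus strand.

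*Mrpl13*, the relative of bacterial L13, on chromosome 15 from 55534094 to 55557748, had 5.27, 5.53 and 5.67 log2 CPM in controls as lowest, median and highest, and 5.09, 5.22 and 5.44 in MSUS samples. Its log2 fold change was -0.23 with a standard error of 0.09 and an unadjusted p of 0.0183 in limma. *Mrpl4*, on chromosome 9 from 21002738 to 21008839, encodes a protein that reaches into the exit tunnel. It had 4.24, 4.48 and 4.70 log2 CPM in controls and 3.87, 4.21 and 4.40 in MSUS samples, with MSUS 13 lowest. The log2 fold change was -0.26 with a standard error of 0.10 and an unadjusted p of 0.0228 in limma.

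In the small subunit, *Mrps23* and *Mrps34*, both without a bacterial counterpart, had an unadjusted p under 0.05. *Mrps23*, on chromosome 11 from 88204388 to 88211507, had 5.12, 5.46 and 5.57 log2 CPM in controls and 4.97, 5.25 and 5.32 in MSUS samples. Control 10 was the lowest control, and only MSUS 5 and MSUS 26 were below it. The log2 fold change was -0.22 with a standard error of 0.09 and an unadjusted p of 0.0231 in limma. *Mrps34*, on chromosome 17 from 24895116 to 24897502, had 4.15, 4.51 and 4.63 log2 CPM in controls and 4.004, 4.14 and 4.39 in MSUS samples, where 4 of 7 were below every control. Its log2 fold change was -0.25 with a standard error of 0.10 and an unadjusted p of 0.0270 in limma. In each of the 5 genes, all 7 MSUS samples were below the control mean. Without MSUS 5 and MSUS 26, the unadjusted p was under 0.05 for *Mrpl41* alone, and it ranged from 0.0507 to 0.142 in limma for the other 4. With these samples left out the log2 fold change was -0.28 for *Mrpl41*, -0.19 for *Mrpl13*, -0.25 for *Mrpl4*, -0.14 for *Mrps23* and -0.19 for *Mrps34*. The call of *Mrps34* was also lost without any 1 of control 9, 14, 22 and 24 and MSUS 5, 13 and 26, with an unadjusted p of 0.0503 to 0.0599 in limma. That of *Mrps23* was lost without control 12, MSUS 5 or MSUS 26, that of *Mrpl4* without control 14 or MSUS 13 and that of *Mrpl13* without control 22. With *Malat1* in the model the log2 fold change was -0.07 for *Mrps23*, -0.17 for *Mrps34*, -0.23 for *Mrpl4* and -0.22 for *Mrpl13*, with unadjusted p in limma of 0.472, 0.18, 0.0925 and 0.0615. With the mitochondrial mRNA share it was -0.16 for *Mrps23* and -0.19 for *Mrps34*, with unadjusted p of 0.114 and 0.118. The cytosolic ribosomal protein score, added to the model after the values were seen, also ended the calls of *Mrps23*, *Mrps34* and *Mrpl4*. Their log2 fold changes were then -0.14, -0.22 and -0.24, with unadjusted p in limma of 0.108, 0.0669 and 0.0509. For *Mrpl41* and *Mrpl13* the unadjusted p in that fit was 0.0245 and 0.0292.

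**Figure D3:**
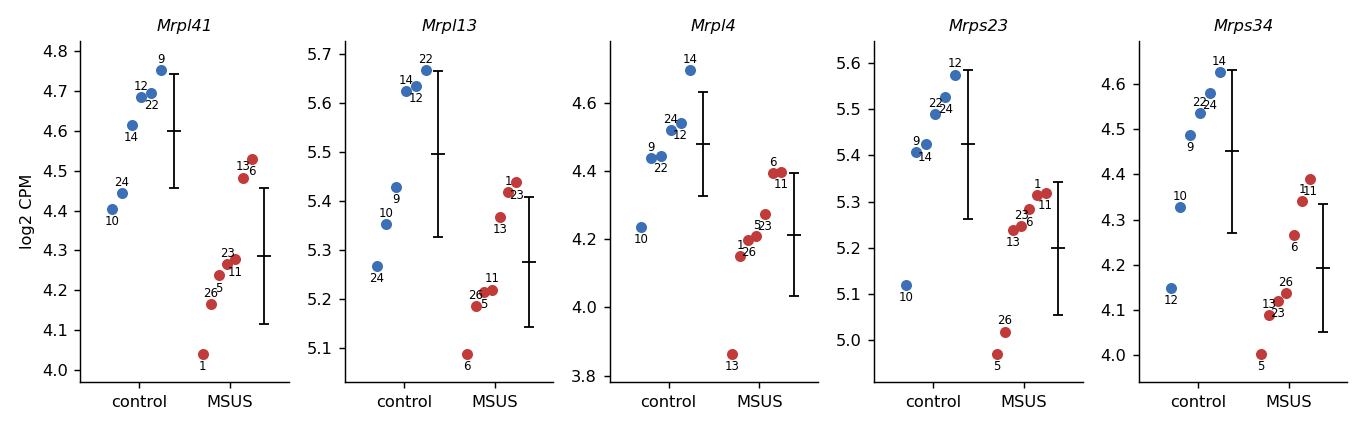
Log2 CPM of the 5 genes with an unadjusted p under 0.05 in each of the 6 control (blue) and 7 MSUS samples (red), labelled by animal number, with mean ± SD beside them. Each panel has its own vertical scale, which does not start at 0, and the groups overlap in each panel.

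The genes with a positive log2 fold change were within the spread between mice. The smallest unadjusted p among them was 0.363, for *Mrps10* with a log2 fold change of 0.09. *Mrpl55* had 0.11, *Mrps5* 0.07, *Mrps16* 0.16 and *Mrpl33* 0.13. *Mrps16*, with a mean count of 57.2, had -0.03 without control 10.

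Most genes of known place in the ribosome had negative values, and *Mrps12*, *Mrps5* (0.07), *Mrpl45* and *Mrps18b* had positive ones. In the stalk, the log2 fold change was -0.26 for *Mrpl12*, with an unadjusted p of 0.056 in limma, -0.13 for *Mrpl10*, -0.09 for *Mrpl11* and -0.02 for *Mrpl53*. At the exit tunnel it was -0.26 for *Mrpl23*, with an unadjusted p of 0.075, -0.10 for *Mrpl24*, -0.06 for *Mrpl22* and 0.06 for the membrane anchor *Mrpl45*. Near the peptidyl transferase centre it was -0.11 for *Mrpl3*, -0.12 for *Mrpl16* and -0.09 for *Mrpl2*. In the small subunit it was -0.24 for *Mrps2*, with an unadjusted p of 0.053, -0.11 for *Mrps7*, -0.04 for *Mrps14* and 0.04 for *Mrps12*. It was -0.06 for *Mrps18a*, 0.02 for *Mrps18b*, -0.16 for *Mrps18c*, -0.13 for *Mrps30*, -0.19 for *Mrpl58* and -0.06 for *Mrps36*. Apart from *Mrpl12*, *Mrpl23*, *Mrps2*, *Mrpl58* and *Mrps30*, each of these genes had an unadjusted p above 0.1.

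Genes of both subunits were mostly negative. In the large subunit 3 of 51 genes were lower and 44 were negative, with a median log2 fold change of -0.093. In the small subunit 2 of 26 were lower and 19 were negative, with a median of -0.056. Of all genes tested, 2.4% were lower and 50.5% were negative. Without MSUS 5 and MSUS 26 the median was -0.020 in the large subunit, with 31 genes negative and 1 lower. It was 0.0056 in the small subunit, with 12 negative and 0 lower, and 1.78% of all genes were lower in that fit. When 1 sample was left out, the median of the small subunit ranged from -0.103 without control 10, with -0.092 without MSUS 1 and -0.088 without control 22, to -0.035 without MSUS 26, and that of the large subunit from -0.120 without control 10 to -0.049 without MSUS 26. With the mitochondrial mRNA share in the model the medians were -0.030 in the large and 0.0047 in the small subunit, and with *Malat1* 0.042 and 0.057. They were -0.027 and -0.0033 with the cytosolic ribosomal protein score, added after the values were seen, and -0.098 and -0.090 with sample quality weights. Across the 13 samples the mean deviations of both subunits correlated with r = 0.94. Among the 31 genes without a bacterial counterpart, a division made after values were seen, 3 were lower, 26 were negative and the median was -0.105. Among the 46 genes with one, 2 were lower, 37 were negative and the median was -0.083. Both stand beside the same 2.4% lower and 50.5% negative of all genes.

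Other genes of mitochondrial translation were described from lists by function. Of the 5 mitochondrial ribosome proteins with other names, *Dap3*, *Chchd1*, *Ptcd3*, *Aurkaip1* and *Gadd45gip1*, 0 had an unadjusted p under 0.05. All had a negative log2 fold change, between -0.11 for *Chchd1* and -0.02 for *Aurkaip1*. Of 15 translation factors tested, such as the elongation factor *Tufm* with -0.12 and the initiation factor *Mtif2* with 0.08, 0 had an unadjusted p under 0.05, and the median was -0.014. Of 28 genes for ribosome assembly and modification of its RNA, 1 was lower and 0 were higher, beside 2.4% and 3.02% of all genes, with a median of -0.061. The lower gene was *Trub2*, an enzyme that modifies mitochondrial RNA, with -0.32, a standard error of 0.14 and an unadjusted p of 0.0351 in limma, and -0.16 with an unadjusted p of 0.233 without MSUS 5 and MSUS 26.

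Of 9 tested transcription factors and coactivators known at nuclear genes of mitochondria, 1 was higher and 0 were lower, beside 3.02% and 2.4% of all genes. This was *Pprc1*, a coactivator related to PGC-1, with 4.77, 5.04 and 5.19 log2 CPM as lowest, median and highest in controls and 5.15, 5.27 and 5.50 in MSUS samples. Each of the 7 MSUS samples was above the control mean, and the groups overlapped. The log2 fold change was 0.29 with a standard error of 0.09, an unadjusted p of 0.00382 and an adjusted p of 0.878 in limma, and 0.25 with an unadjusted p of 0.0195 without MSUS 5 and MSUS 26. *Nrf1*, *Gabpa* and *Yy1*, whose motifs are described above, had -0.08, -0.07 and -0.02. Of 7 genes for transcription of mitochondrial DNA, 0 had an unadjusted p under 0.05, and *Tfam*, which packages this DNA, had 0.12.

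Cytosolic ribosomal protein genes, whose products translate the 78 genes, and the mRNA of mitochondrial DNA, which the mitochondrial ribosome translates, were compared in the same fit. Of 81 cytosolic ribosomal protein genes tested, 13 were lower and 0 were higher, 76 were negative and their median was -0.105 on the log2 scale. Of the 13 mRNA of mitochondrial DNA, 7 were higher and 0 were lower, 3 were negative and the median was 0.40. By the same rule 2.4% of all genes were lower, 3.02% were higher and 50.5% were negative. After adjustment in limma, 0 genes of either list had p under 0.05. The study reports that mitochondrial DNA copy number differed between groups in these samples, and proposes it as a possible bias in mitochondrial genes. In a separate cohort it found *ND4*, *ND6* and *CYTB* lower in MSUS males by quantitative PCR. The part of copy number in the values given here was not tested. Without MSUS 5 and MSUS 26, 0 cytosolic genes were lower, 50 were negative and the median was -0.021. Of the 13 mRNA, 0 were higher, 3 were negative and the median was 0.23. In that fit 1.78% of all genes were lower and 2.25% were higher. The samples left out were also the lowest in the cytosolic genes and among the highest in the 13 mRNA, so leaving them out drew both differences toward 0. The mean of the 84 cytosolic genes was 6.12, 6.30 and 6.47 log2 CPM as lowest, median and highest in controls and 5.93, 6.21 and 6.36 in MSUS samples. That of the 13 mRNA was 9.23, 9.55 and 9.91 in controls and 9.49, 9.97 and 10.29 in MSUS samples. Both lists overlapped between groups. The difference in mean log2 CPM between the 78 genes and the cytosolic genes was nearly the same in both groups, at -1.66 ± 0.07 in controls and -1.64 ± 0.09 in MSUS samples. Against the mRNA of mitochondrial DNA it was -4.93 ± 0.32 in controls and -5.36 ± 0.40 in MSUS samples, and the ranges overlapped.

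**Figure D4:**
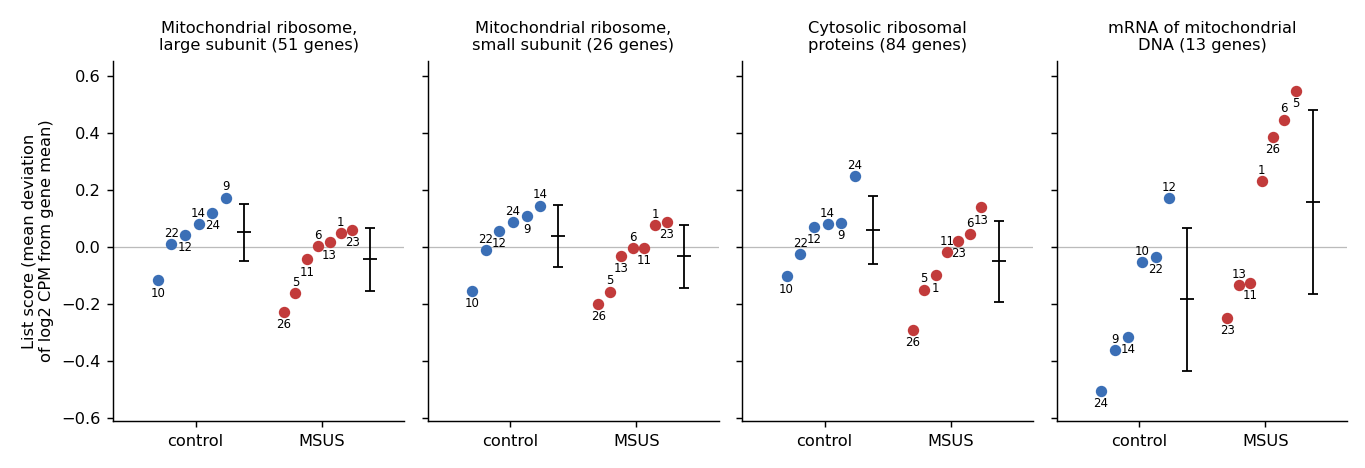
Mean deviation of log2 CPM from each gene's mean over 13 samples, for 4 lists, in each control (blue) and MSUS sample (red), labelled by animal number, with mean ± SD beside them. MSUS 26 and MSUS 5 are lowest in both subunits and in the cytosolic genes, and MSUS 5, 6 and 26 are highest in the mRNA of mitochondrial DNA.

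Across samples the 78 genes went with the cytosolic genes and against the mRNA of mitochondrial DNA. These correlations are descriptions, because all points share a library and its scaling. With the cytosolic genes, r was 0.81 and rho 0.78 over 13 samples, 0.81 and 0.94 in the 6 controls and 0.75 and 0.61 in the 7 MSUS samples. Without the 2 samples farthest from the median, MSUS 5 and MSUS 26, r was 0.58 and rho 0.64. These samples were picked by the score that is correlated, and the narrower range that is left tends to draw r toward 0. With the mRNA of mitochondrial DNA, r was -0.69 and rho -0.76 over 13 samples, -0.61 and -0.71 in controls and -0.63 and -0.68 in MSUS samples, and -0.46 and -0.65 without the same 2 samples.

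The nuclear noncoding RNA *Malat1*, which moved against the 78 genes, was at 9.16, 9.997 and 10.69 log2 CPM as lowest, median and highest in controls and at 10.16, 10.44 and 11.28 in MSUS samples. It was highest in MSUS 5 with 11.28 and MSUS 26 with 11.07, and control 10 was the highest control with 10.69, so the 3 samples lowest in the 78 genes included the 2 highest in *Malat1*. Its log2 fold change was 0.70 with a standard error of 0.22 and an unadjusted p of 0.00505 in limma, and 0.47 with an unadjusted p of 0.0344 without MSUS 5 and MSUS 26. As for all genes tested, its adjusted p was not under 0.05. Over 13 samples r was -0.83 and rho -0.80, in controls -0.83 and -0.89, in MSUS samples -0.79 and -0.57, and without MSUS 5 and MSUS 26 -0.70 and -0.68. With the *Malat1* level in the model, the median log2 fold change of the 78 genes was 0.047 and 31 of the 78 were negative. The part of *Malat1*, or of what sets its level, in the group difference was not tested. *Malat1* is in none of the lists, and how many other genes moved as far against the 78 genes is not given here. The Sertoli cell markers also went with the 78 genes, with r = 0.77 over 13 samples and r = 0.84 without MSUS 5 and MSUS 26, while r with the elongated spermatid markers was 0.22 over 13 samples, -0.24 in controls, 0.62 in MSUS samples and -0.40 without MSUS 5 and MSUS 26.

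**Figure D5:**
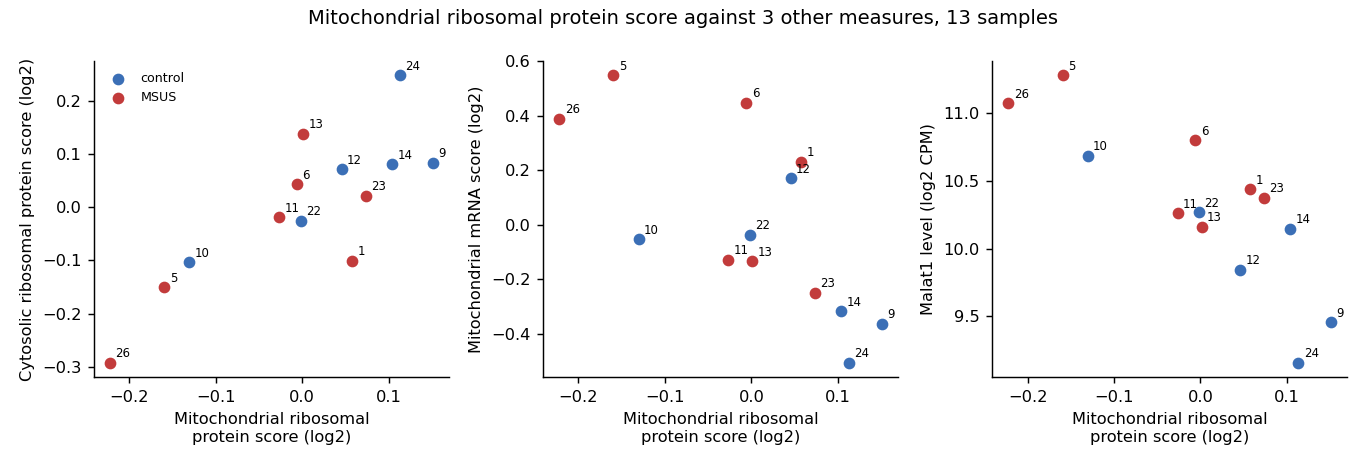
Mean deviation of the 78 genes in each of 13 samples (horizontal) against that of the cytosolic ribosomal protein genes, that of the mRNA of mitochondrial DNA and the log2 CPM of *Malat1* (vertical), with controls in blue and MSUS samples in red, labelled by animal number. The values of r are 0.81, -0.69 and -0.83, and MSUS 5 and MSUS 26 lie at the left end of each panel.

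The measured levels of single genes of the mitochondrial ribosome correlated only loosely with each other. After removal of group means, the median r over 3003 pairs of the 78 genes was 0.287 and 80.4% of the pairs were positive, beside a mean of 0.0008 over all pairs of all genes tested. It was 0.277 within the large subunit, 0.301 within the small subunit and 0.294 between them, and these 3 values were close to each other. Pairs of cytosolic genes had a higher median of 0.576, and pairs of a mitochondrial with a cytosolic ribosomal protein gene had 0.352. The cytosolic genes also had more counts, with a median control level of 6.57 log2 CPM beside 4.58 for the 78 genes. Sampling noise is larger at low counts and lowers r between single genes, and its part in these values was not tested. Pairs with an mRNA of mitochondrial DNA had -0.175. Of all genes tested, those most like the large subunit over 13 samples were *Rpl19*, a cytosolic ribosomal protein gene, with r = 0.96 and *Aldoa*, which encodes a glycolytic enzyme, with r = 0.95. Those most like the small subunit were *Ubb*, a ubiquitin gene, with r = 0.97 and the predicted gene *Gm9112* with r = 0.96.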

How the data were processed

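The authors trimmed reads of Sertoli cell RNA, 5 ng per library (SMARTer Stranded Total RNA-Seq Pico kit), with Trim Galore 0.6.5, assigned them with Salmon 1.1.0 to GENCODE transcripts and deposited estimated counts per gene, without normalization. How transcripts were summed to genes and the strand setting are not given in the sources used here. Estimates were rounded. The 27170 features of 54281 with no gene name, with 20.7% to 26.7% of the counts, were left out, and 0 columns could not be matched to a sample. No pair of libraries agreed within sampling noise.

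Groups were compared in R 4.3.3 with limma 3.58.1 (voom) after TMM normalization in edgeR 4.0.16, as the study's methods state. A filter on low counts (filterByExpr) was added here, and p-values were adjusted by Benjamini-Hochberg over all 14421 genes that passed it. The code was tested on simulated data. Transcript lengths and positions come from an older GENCODE release on GRCm38 than that of the authors. The members and lists were chosen with earlier results of these data known. Named genes are the 5 of lowest p in each direction, the 5 highest and lowest per kb, those of known role, the extremes of SD among controls and the genes most like each subunit. *Malat1* was named outside these rules. Ribosomal RNA of mitochondria was not analysed here. Alternatives were edgeR's quasi-likelihood test, DESeq2 1.42.0, other normalizations and filters, covariates and leaving out samples.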

Additional observations from a re-analysis of the deposited data

Results flagged for a closer look

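Groups of 6 and 7 samples were searched for single samples far from the others in 16 values, and 2 of 32 groups held one, where chance gives about 1 in 20. In *Mrps23*, control 10 had 5.12 log2 CPM, the lowest control, while the nearest control had 5.41 and the highest 5.57. In *Mrpl33*, the relative of bacterial L33, MSUS 26 had 2.43 log2 CPM, while the nearest MSUS sample had 3.21 and the highest 3.46. Both animals were among the 3 with the lowest mean over the 78 genes, of which the flagged values are part. The share of groups flagged is near that of chance.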

How the results depend on the processing

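No paired analysis was possible because the groups share no animal numbers. The count of lower genes among the 78, 5 as reported, was 6 with edgeR's quasi-likelihood test and with DESeq2, 8 with sample quality weights, 9 with library size alone, 3 with the mitochondrial mRNA share as covariate, 1 with *Malat1* and, both chosen after seeing the data, 2 with the cytosolic ribosomal protein score and 1 without MSUS 5 and MSUS 26. It ranged from 3 to 12 when 1 sample was left out, with 12 without control 10, 10 without MSUS 1, 8 without MSUS 23 and 3 without control 22, MSUS 5, MSUS 13 or MSUS 26. The count of higher genes was 0 except with *Malat1* as covariate, which gave 1. Of all genes, 2.4% were lower as reported, 2.18% with edgeR, 2.07% with DESeq2, 3.11% with weights, 3.25% with library size alone (2.25% higher), 1.25% with the mitochondrial mRNA share, 1.38% with *Malat1*, 1.5% with the cytosolic score and 1.78% without MSUS 5 and MSUS 26. With *Malat1*, the medians were 0.0474 for all 78 genes, 0.0419 for the large and 0.0574 for the small subunit, which was 0.00469 with the mitochondrial mRNA share and 0.00564 without MSUS 5 and MSUS 26. Leaving out 1 sample gave medians of all 78 from -0.114 without control 10 to -0.0471 without MSUS 26. The level of the large above the small subunit in controls was 0.0655 by symbol and 0.0777 without length. Correlations without the 2 farthest samples, picked by the score itself, were 0.581 and -0.463. *Mrps16*, 0.164 as reported, ranged from -0.034 without control 10, a change of sign, to 0.272 without control 22 when 1 sample was left out, and was 0.451 with *Malat1* as covariate. The cause was not tested in any of these. *Mrpl41* had an unadjusted p under 0.05 under all 26 alternatives tried.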
